A study of Aptenodytes patagonicus with 7 samples.

Results

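Mitochondrial ribosomal proteins are the nuclear-encoded protein subunits of the mitochondrial ribosome, the machine that translates the few messenger RNAs of the mitochondrial genome. Those messenger RNAs encode core subunits of the respiratory chain and of ATP synthase, and flight and swimming muscle holds many mitochondria. The small subunit binds the messenger RNA and decodes it, and the large subunit joins the amino acids. Some of the proteins descend from bacterial ribosomal proteins, and the others were added in the mitochondrial lineage.

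The members were all genes with a symbol starting MRPL or MRPS followed by a digit, taken from probe sets annotated with a single symbol, with the probe set of highest mean over the 7 birds standing for each gene. This gave 67 of the 12920 named genes, 43 with a large subunit symbol (MRPL) and 24 with a small subunit symbol (MRPS). In all, 94 probe sets carried a member's symbol. The authors had already dropped probes that stayed below background on every array. No further filter on low values was applied, so all 67 genes were tested.

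The pectoralis, the muscle that powers the flippers, was biopsied in juvenile king penguins (Aptenodytes patagonicus). The 3 sea-acclimated birds (SA, 2 labelled female and 1 male) had completed their acclimation to marine life, and the 4 never-immersed birds (NI, 3 labelled female and 1 male) were taken before their first immersion. The groups are different wild birds at different stages, so acclimation, age and time of capture cannot be told apart. RNA of each bird was hybridised to a chicken array, and the values are log2 intensities of the single probe the authors kept for each probe set. A difference of 1 on this scale is a doubling of intensity, and intensities of different probes are not comparable. In biopsied muscle, fewer cells of a type and less RNA per cell cannot be told apart.

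After the authors' normalisation the array medians lay between 8.58 and 8.59. Of 16 skeletal muscle markers sought, 13 were measured and 11 of these were brighter than 9.58, the upper quartile of all probe sets. Of the 13, 1 passed as lower in SA birds at a limma adjusted p under 0.10. This was TNNC2, the calcium-binding troponin of fast fibres (-0.94, limma adjusted p = 0.0341). By this rule 0.967% of all genes were lower and 0.580% higher in SA birds. Of 8 fibroblast markers, 2 passed as lower, and the list averaged 8.51 to 9.26 in SA birds and 9.40 to 10.1 in NI birds. Of 8 erythroid markers sought 4 were measured, and 1 passed as lower, TFRC (-1.64, limma adjusted p = 0.0733). The 4 had 1 positive and 3 negative differences with a median of -0.07, and HBAD differed by -0.11. Their means were 11.3 to 11.7 in SA birds and 11.7 to 12.2 in NI birds. Among the nerve and Schwann cell markers 1 of 4 passed as lower, MBP (-1.24), with 2 positive and 2 negative differences and a median of -0.10. Among the adipocyte markers 1 of 5 passed as higher, RBP7 (1.13), with 2 positive and 3 negative differences and a median of -0.12. No endothelial or leukocyte marker passed (medians 0.25 and 0.17). The part of these cells in the values of the members was not tested. NI bird 3, labelled female, had a mean level of Z chromosome genes near that of the males. In single genes the separation was small. Of 460 Z genes other than the members, NI bird 3 was nearer the male mean in 57.2%, against 53.6% of autosomal genes. It was above all other birds labelled female in 27.2%, against 13.3% of autosomal genes. Over 460 Z genes other than the members, the mean deviation from the gene mean was 0.06 in SA bird 3 and 0.08 in NI bird 4, the males, and 0.07 in NI bird 3, against -0.06 to -0.05 in the other birds labelled female. By medians SA bird 3 stood at 0.03, NI bird 4 at 0.05 and NI bird 3 at 0.05, against -0.05 to 0.00 in those others. The fits of sex are therefore given with and without NI bird 3. Leaving it out for its high Z mean by itself tends to widen the male minus female difference of Z genes. It can also lower the SE and p, so nothing further is read from a larger difference in those fits.

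No member differed between SA and NI birds at a limma p adjusted over all 36897 probe sets of under 0.10 (0 of 67). Over the 12920 genes, 0.580% were higher and 0.967% lower in SA birds by the same rule. The signs follow the sample labels. Over all probe sets these gave 154 higher and 240 lower in SA birds. The study's text gives the larger of its totals as up-regulated after acclimation, which is the other way round. At an unadjusted limma p under 0.05, no member was higher and 3 were lower, which were MRPL18, MRPL15 and MRPL21, beside 5.79% higher and 6.66% lower over all genes. The SA minus NI difference was positive in 30 members and negative in 37, with a median of -0.03 (quartiles -0.19 and 0.09, range -0.54 to 0.41). All genes had a median of 0.00 (quartiles -0.13 and 0.14). The median size of the difference, whatever its sign, was 0.14 in the members and 0.13 over all genes.

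**Figure D1:**
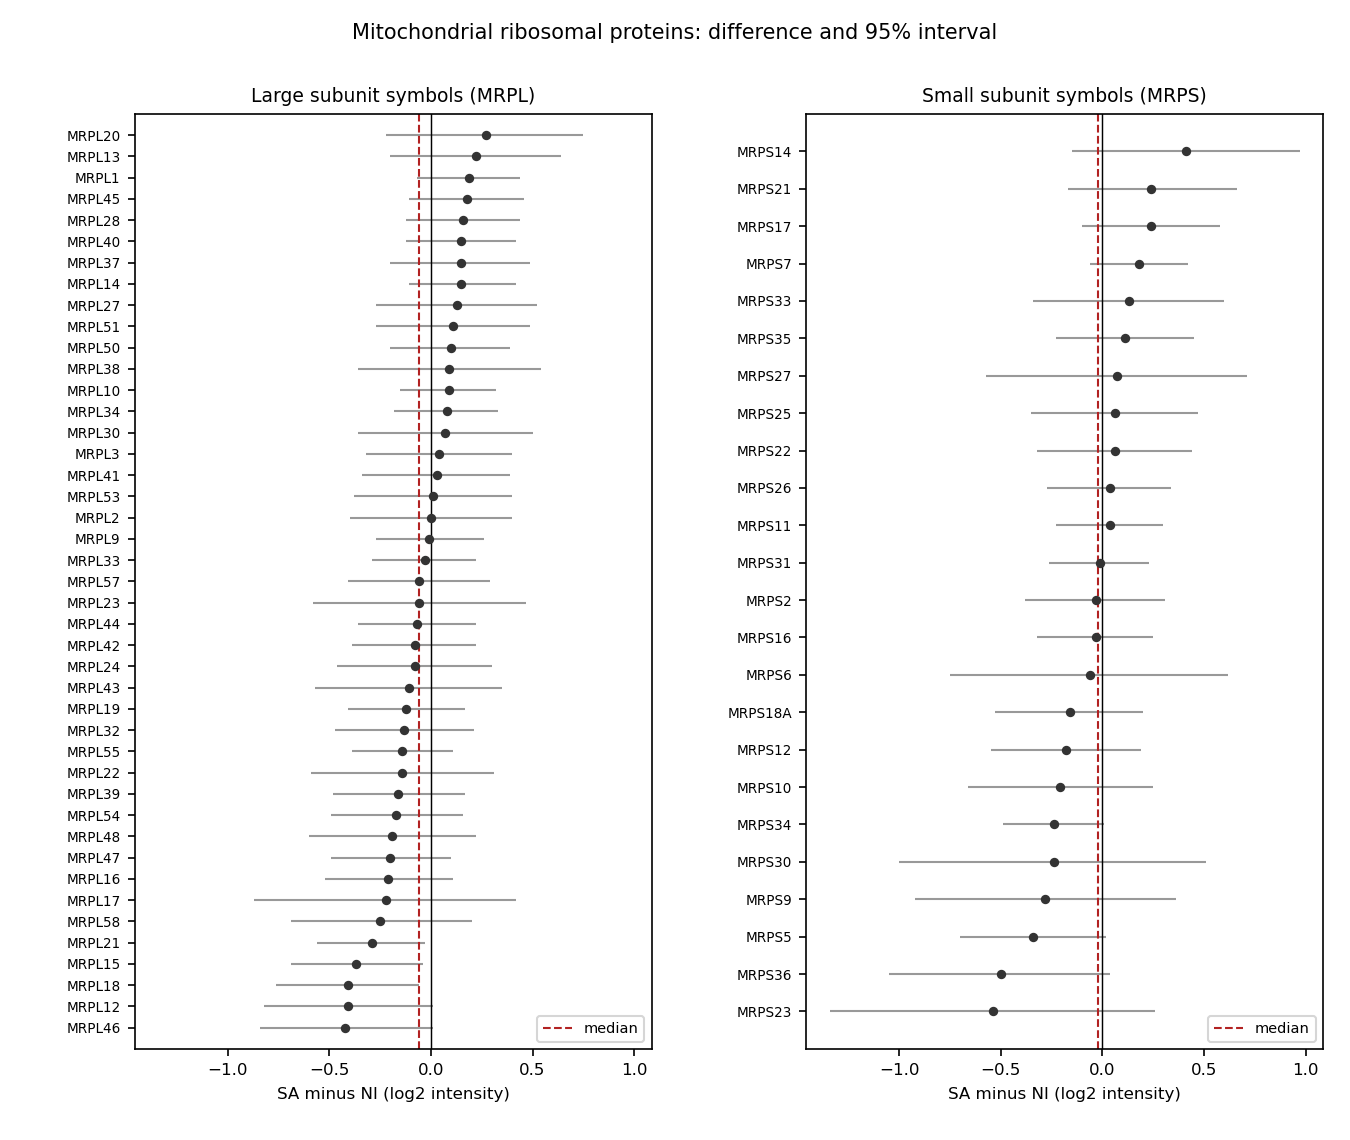
SA minus NI difference (log2 intensity) of the 67 members by subunit, with the limma 95% confidence interval of each. The differences span -0.54 to 0.41 around a median of -0.03, and no member passed the adjusted threshold.

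The precision sets what could have been seen. The median standard error of a member's difference was 0.16, and its 95% interval reached a median of 0.36 to each side (0.23 to 0.80). For 65 of 67 members (97.0%) the whole interval lay between -1 and 1, against 91.9% of all genes, and for 36 (53.7%) it lay between -0.5 and 0.5, against 54.5% of all genes. The intervals of MRPS23 (-1.34 to 0.26) and MRPS36 (-1.05 to 0.04) reached beyond -1. Birds of a group differed in the members by a median SD of 0.234 (SA) and 0.189 (NI), against 0.178 in both groups over all genes. In simulated data of this size, 88.4% of probe sets changed by 1 log2 unit were recovered, and 13.3% of those changed by 0.5. In each run 200 of the 36897 probe sets, drawn from all with deposited values, were changed by 0.5, 1 or 2 log2 units. The noise was independent. The share recovered depends on how many probe sets change, which is not known for the birds. Over all genes the median standard error was 0.144, below that of the members, so these rates may be too high for the members.

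The median difference was close to 0 in both subunits. Of the 43 large subunit genes, 19 were higher and 24 lower in SA birds, with a median of -0.06 (range -0.42 to 0.27). Of the 24 small subunit genes, 11 were higher and 13 lower, with a median of -0.02 (range -0.54 to 0.41). Symbols do not always give the place of a protein. MRPS30 and MRPS18A belong to the large subunit in mammals, and MRPS36 is a component of the 2-oxoglutarate dehydrogenase complex. With these moved or left out, the median was -0.06 over 45 large subunit genes and 0.04 over 21 small subunit genes. Genes classed as having a protein with a bacterial counterpart (39 members, 16 higher and 23 lower) had a median of -0.03. MRPL55 (-0.14) was counted in that class, although its protein is particular to mitochondria. The 27 genes classed as particular to mitochondria (14 higher, 13 lower) had a median of 0.01. None of these differences between classes was tested.

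Among large subunit genes, MRPL18 had the smallest p. Its protein lies in the central protuberance of the subunit. The 3 SA birds measured 12.57, 12.18 and 12.26, against 13.02, 12.67, 12.48 and 12.81 in the NI birds. SA bird 1 lay above the lowest NI bird, so the groups overlapped. The difference was -0.41 (SE 0.16, 0.752-fold), with an limma adjusted p of 0.371.

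MRPL15 encodes a large subunit protein with a bacterial counterpart. SA birds measured 9.42, 9.96 and 9.83, and NI birds 10.04, 10.21, 10.09 and 10.08. All SA birds lay below all NI birds, and SA bird 1 was the lowest. The difference was -0.37 (SE 0.14, limma adjusted p = 0.389), and that of the second probe set of the gene was -0.10. Without SA bird 1 it was -0.21.

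MRPL21 was among the dim probe sets. It measured 7.42, 7.10 and 7.16 in SA birds and 7.49, 7.61, 7.53 and 7.45 in NI birds, again without overlap. The difference was -0.29 (SE 0.12, limma adjusted p = 0.411).

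MRPL12 forms the flexible stalk that recruits translation factors. It measured 11.04, 10.67 and 10.48 in SA birds and 11.48, 11.24, 10.85 and 10.99 in NI birds. SA bird 1 lay within the NI range and the other SA birds below it, and the difference was -0.41 (SE 0.18, limma adjusted p = 0.488). MRPL46, a protein added in the mitochondrial lineage, measured 10.83, 10.23 and 10.29 in SA birds and 10.97, 11.18, 10.68 and 10.63 in NI birds. The placing of the SA birds was the same, with bird 1 inside the NI range, and the difference was -0.42 (SE 0.19, limma adjusted p = 0.489).

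Among small subunit symbols the largest negative value belonged to MRPS23, a protein without a bacterial counterpart. SA birds measured 8.94, 8.24 and 8.44, against 8.19, 9.02, 9.12 and 9.98 in NI birds. NI birds 1 and 4 were the lowest and highest of all birds, so all SA birds lay inside the NI range. The difference was -0.54 (SE 0.36, limma adjusted p = 0.69), but -0.24 without NI bird 4 and -0.83 without NI bird 1. MRPS36 measured 10.47, 9.32 and 10.02 in SA birds and 10.39, 10.69, 10.20 and 10.48 in NI birds. SA bird 2 was far below the rest, and the difference was -0.50 (SE 0.24, limma adjusted p = 0.529), with -0.20 without that bird and -0.77 without SA bird 1. MRPS5, whose protein has a bacterial counterpart, measured 11.19, 10.58 and 11.05 in SA birds and 11.47, 11.21, 11.15 and 11.29 in NI birds. Here too SA bird 2 was lowest, and the difference was -0.34 (SE 0.16, limma adjusted p = 0.512), with -0.16 without that bird.

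Of the positive differences, that of MRPS14 was the largest. This small subunit protein has a bacterial counterpart. It measured 10.17, 9.80 and 10.23 in SA birds and 9.18, 10.33, 9.41 and 9.70 in NI birds. NI bird 2 was the highest of all birds and the other NI birds lay below the SA birds. The difference was 0.41 (SE 0.25, 95% interval -0.15 to 0.97, limma adjusted p = 0.655), with 0.26 without NI bird 1 and 0.64 without NI bird 2.

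MRPL20 measured 12.39, 13.32 and 12.92 in SA birds and 12.57, 12.33, 12.88 and 12.65 in NI birds, with overlap, and the difference was 0.27 (SE 0.22, limma adjusted p = 0.764), with 0.04 without SA bird 2 and 0.51 without SA bird 1. The other members of largest positive difference were MRPS21 and MRPS17 (0.24 each), MRPL13 (0.22), MRPL1, the protein of a mobile stalk beside the exit site (0.19), MRPL45, which lies near the tunnel exit and the inner membrane (0.18), and MRPS7 (0.18). Their standard errors were 0.11 to 0.19, and none passed. MRPS7 was the only member with every SA bird above every NI bird. It measured 8.42, 8.46 and 8.46 in SA birds and 8.16, 8.27, 8.42 and 8.21 in NI birds, with SA bird 1 and NI bird 3 equal at this rounding, and its second probe set differed by 0.07.

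Members whose groups did not overlap were counted by direction. The counts are small and are not read as a trait of the members. Every SA bird was above every NI bird in 1 of 67 members, beside 5.60% of all genes, and below in 3 of 67, beside 5.93%. The 3 were MRPL15, MRPL21 and MRPS34, the last named after its values were seen. MRPS34, a protein added in the mitochondrial lineage, measured 9.45, 9.56 and 9.38 in SA birds and 9.70, 9.84, 9.60 and 9.67 in NI birds. The difference was -0.24 (SE 0.11, limma adjusted p = 0.507), and that of its second probe set was -0.27.

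The birds differed in their mean level of the members. Averaged over the 67 members, the deviation from the gene mean was 0.05, -0.11 and -0.03 in SA birds 1 to 3 and -0.01, 0.07, -0.01 and 0.03 in the NI birds. SA bird 2 was the lowest and NI bird 2 the highest, and SA bird 1 lay between NI birds 2 and 4. By medians over the members, SA birds 2 and 3 both stood at -0.04. In the second-brightest probe sets of the 19 genes that have one, the order was another, with NI bird 1 lowest (-0.0553), SA bird 1 at -0.0357 and SA bird 2 at 0.0118. In the small subunit the SA birds stood at 0.10, -0.20 and 0.00 and the NI birds at -0.08, 0.16, -0.04 and 0.05. In the large subunit they stood at 0.03, -0.06 and -0.05 in SA birds and at 0.04, 0.02, 0.01 and 0.02 in NI birds. SA bird 2 was the lowest of the 7 birds in 20 of 67 members (29.9%), against 15.3% of all genes. Its distance below the next bird ran from 0.00 (MRPL42) and 0.02 (MRPL2 and MRPS22) to 0.70 (MRPS36). NI bird 2 was the highest in 16 of 67 (23.9%), against 12.8% of all genes. The nuclear-encoded respiratory chain subunits had the same extremes by mean, with SA bird 2 lowest (-0.10) and NI bird 2 highest (0.11, and highest in 40.6% of the genes). There SA birds 1 and 2 were lowest equally often (21.9% of the genes each). SA bird 1 stood at -0.05 in that list, against 0.05 in the members.

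**Figure D2:**
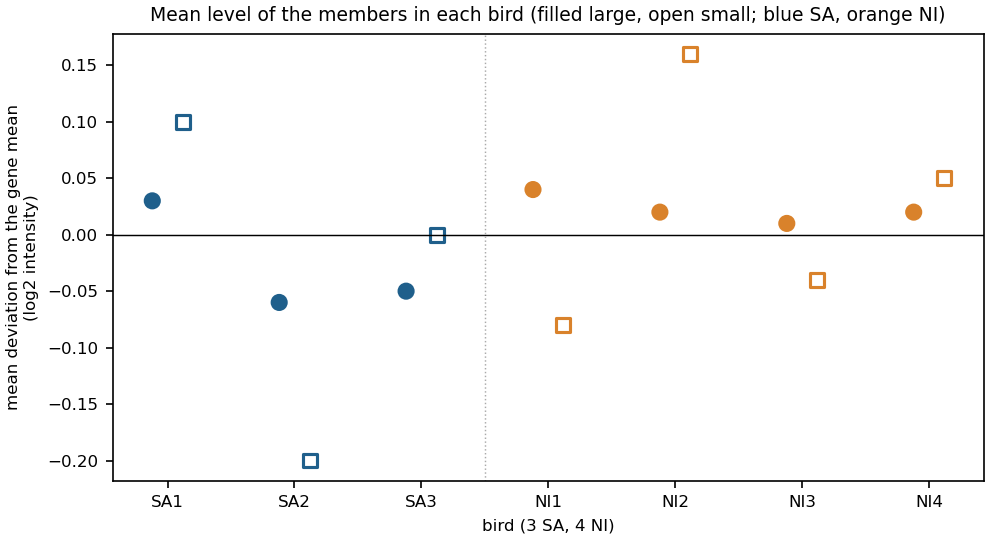
Mean deviation from the gene mean (log2 intensity) of large (filled) and small (open) subunit genes in each of the 3 SA and 4 NI birds. The small subunit ran between -0.20 in SA bird 2 (-0.10 by the median over its genes) and 0.16 in NI bird 2, and in the large subunit SA birds 2 (-0.06) and 3 (-0.05) were nearly level.

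SA bird 1 lay above the other SA birds in the member means. It was left out for that reason, which by itself makes members lower in SA birds, so the counts that follow are a description and nothing is read from them beside the shares of all genes. Without it, both remaining SA birds were below every NI bird in 15 of 67 members, beside 12.9% of all genes, and above in 4, beside 14.5%. At an unadjusted limma p under 0.05, 7 members were then lower, beside 8.55% of all genes, and 1 was higher, beside 8.72%. No member was called, and the median difference was -0.07.

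Several probe sets of a gene gave a limited check on the single probe behind each value. Which strand and which stretch of the transcript each probe set reads was not examined. Of the members, 19 had more than 1 probe set (46 in all). In 9 genes all probe sets differed in the same direction, in 10 the directions were mixed, and the median range of the differences within a gene was 0.16. MRPL20 had 5 probe sets, with differences of 0.27, 0.13, -0.21, -0.08 and -0.24. MRPL3, a protein near the peptidyl transferase centre, had differences of 0.04, -0.13 and -0.44. MRPS6 had -0.06 and 0.47. Both MRPL3 and MRPS6 were named after their values were seen.

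A single member probe set of 94 passed the threshold, beside 0.650% of all 36897 probe sets that were lower in SA birds. It was the second brightest of 4 probe sets of MRPL32, a large subunit protein that in yeast and mouse is cleaved by the mitochondrial m-AAA protease before it joins the ribosome. It measured 9.93, 10.27 and 9.91 in SA birds and 10.71, 10.92, 10.53 and 10.71 in NI birds. The groups did not overlap, and the difference was -0.68 (SE 0.14, 95% interval -0.99 to -0.37, 0.624-fold, limma adjusted p = 0.0835).

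None of the other probe sets of MRPL32 passed. The brightest measured 11.29, 11.24 and 11.32 in SA birds and 11.21, 11.79, 11.26 and 11.40 in NI birds, a difference of -0.13 (limma adjusted p = 0.844). The remaining probe sets differed by -0.21 (limma adjusted p = 0.756) and by 0.21 (limma adjusted p = 0.762). Leaving out a bird ended the call in 5 of 7 fits, with an limma adjusted p of 0.144 without SA bird 1, 0.253 without SA bird 3, 0.187 without NI bird 1, 0.192 without NI bird 2 and 0.165 without NI bird 4. Sex as a covariate (0.122) and a trended prior (0.102) ended it too. In the fits that ended the call, the difference itself lay between -0.68 and -0.61. It was -0.8 without SA bird 2 and -0.74 without NI bird 3.

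**Figure D3:**
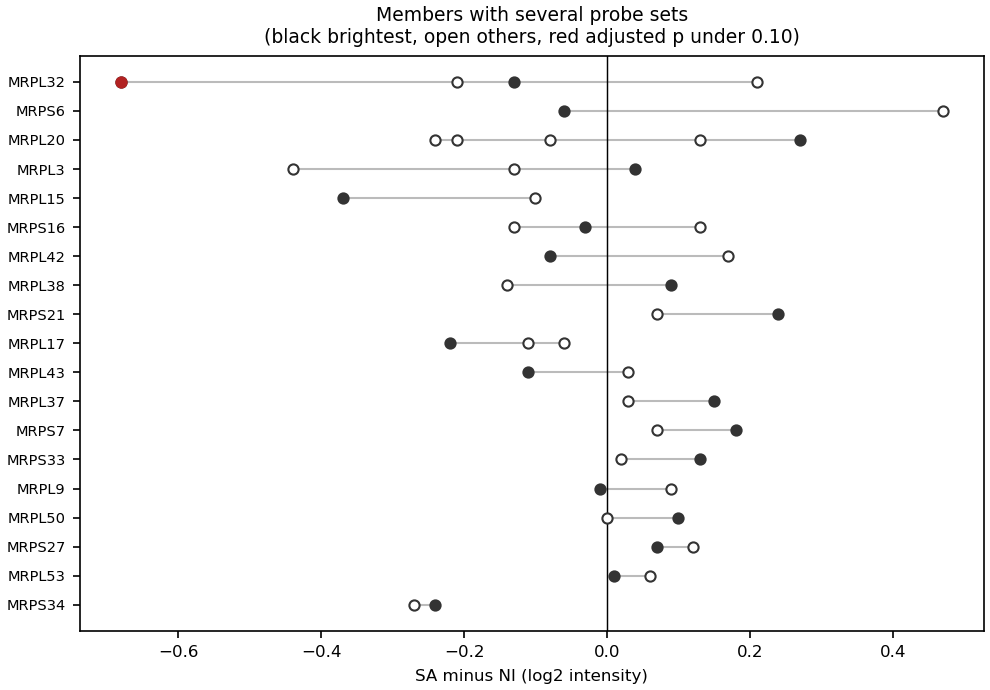
SA minus NI difference (log2 intensity) of each probe set of the 19 members with more than 1, the brightest in black, the others open and the one past the threshold in red. The probe sets of MRPL32 range from -0.68 to 0.21 and those of MRPL20 from -0.24 to 0.27.

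The members on the Z chromosome were described by sex. Male birds carry a pair of Z chromosomes and females a single Z with a W, and in birds the dose of Z genes is only partly compensated. In the RefSeq annotation of the king penguin assembly bAptPat1.pri.cur, 64 of the 67 members were found (not MRPL9, MRPL16 and MRPS36), and 4 were on Z, namely MRPS30, MRPL17, MRPS27 and MRPL50. Males were compared with birds labelled female in limma, with the group as a covariate. No member and no probe set passed with all birds (0 of 67, beside 0.00% of 36897), and without NI bird 3 no member passed, beside 0.0217% of probe sets. At an unadjusted limma p under 0.05, 3 members were higher in males, beside 1.47% of all genes, and all 3 were on Z. MRPL3, not on Z, was lower in males by that rule (-0.40), beside 1.60% of all genes. The other probe sets of MRPL3 differed by 0.03 and -0.65. Without NI bird 3 the same 4 members were under 0.05, MRPL3 again at -0.40, beside 1.90% of all genes higher and 1.68% lower in males.

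MRPS30 measured 10.26 (SA bird 3) and 10.28 (NI bird 4) in males, against 9.35 and 9.03 in the SA birds and 9.43, 9.26 and 10.20 in the NI birds labelled female. NI bird 3 lay beside the males, and the other birds labelled female lay well below them. The difference was 0.85 (SE 0.26, 1.80-fold) with an limma adjusted p of 1.0, and without NI bird 3 it was 1.01 (SE 0.15, limma adjusted p = 0.553).

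MRPL17, a large subunit protein with a bacterial counterpart, measured 11.84 and 11.80 in males, against 10.83 and 10.90 in the SA birds and 10.98, 11.13 and 11.75 in the NI birds labelled female. As in MRPS30, the males and NI bird 3 lay above the other birds, with NI bird 3 just below the males. The difference was 0.73 (SE 0.22, 1.66-fold), and without NI bird 3 it was 0.86 (SE 0.14, limma adjusted p = 0.66). The other probe sets of the gene differed by 0.71 and 0.17.

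MRPS27, a protein added in the mitochondrial lineage, measured 11.25 and 11.02 in males, against 10.87 and 10.12 in the SA birds and 10.25, 10.42 and 11.01 in the NI birds labelled female. The difference was 0.60 (SE 0.26), and 0.72 (SE 0.22) without NI bird 3, but the second probe set of the gene differed by -0.01. MRPL50 measured 8.34 and 8.15 in males, against 8.18 and 7.92 in the SA birds and 8.12, 7.96 and 7.98 in the NI birds labelled female. SA bird 1 lay above the lower male, and the difference was 0.21 (SE 0.14), and 0.20 (SE 0.15) without NI bird 3.

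**Figure D4:**
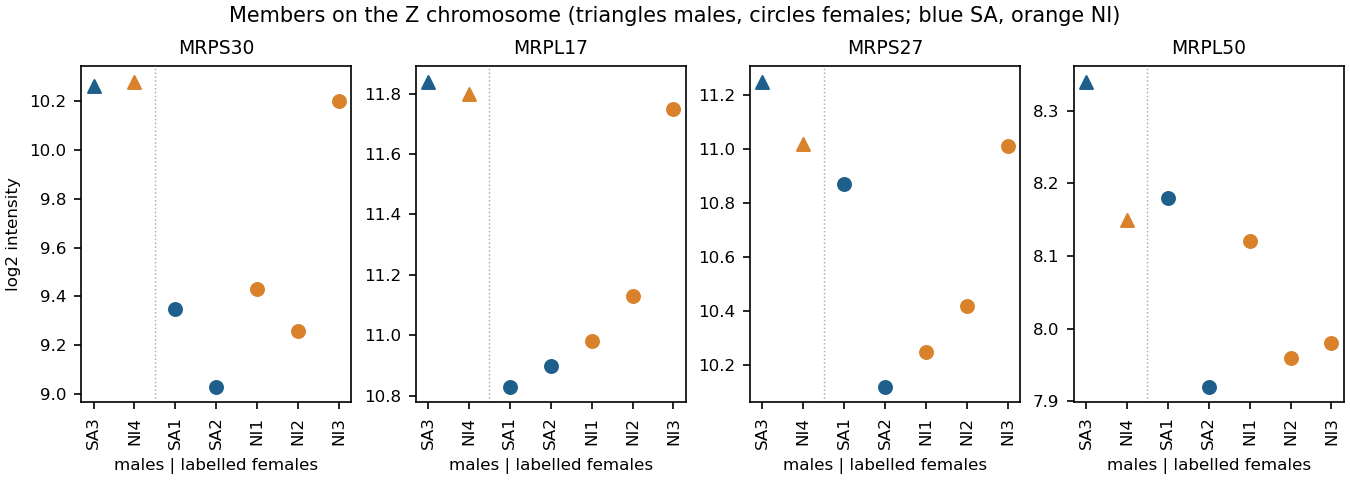
Log2 intensity of the 4 members on the Z chromosome in each bird, males (triangles) left of the birds labelled female (circles), SA in blue and NI in orange. In MRPS30, MRPL17 and MRPS27 both males are above all birds labelled female, with NI bird 3 next to them, while MRPL50 overlaps.

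Both males were above all birds labelled female in 3 of 4 members on Z and in 1 of the 63 other members, beside 2.21% of all genes. Of the 460 other Z genes 8.91% had this order, and of 10003 autosomal genes 1.94%. The median male minus female difference was 0.67 in the members on Z (0.79 without NI bird 3) and -0.04 in the other members (-0.05 without it). It was 0.04 in the other Z genes (0.05 without it) and -0.01 in autosomal genes in both fits. The sexes were not evenly placed in the groups, and the SA minus NI difference of MRPS30 was -0.24, -0.32 with sex as a covariate and -0.11 without NI bird 3. That of MRPL17 was -0.22, -0.29 and -0.11 in the same fits.

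The wider machinery of mitochondrial gene expression was described from lists of genes. Of 4 mitoribosomal proteins under other symbols (AURKAIP1, CHCHD1, DAP3 and PTCD3), none passed, with a median difference of -0.02. None of 12 genes listed as translation factors passed (median -0.04). The largest differences in the list were 0.36 for COX18, an inner membrane insertase and not itself a translation factor (limma adjusted p = 0.426), and -0.33 for GFM1, the elongation factor that moves the ribosome along the messenger (limma adjusted p = 0.39). None of 17 aminoacyl-tRNA synthetases and related enzymes passed (median -0.06), with -0.35 for LARS2 and 0.33 for GATB. None of 22 genes of mitochondrial DNA transcription and maintenance passed (median 0.06), with 0.39 for SSBP1, which binds single-stranded DNA, and -0.37 for RRM2B, a ribonucleotide reductase subunit. At an unadjusted limma p under 0.05, these 4 lists held 2 higher and 4 lower genes of 55 in all, beside 5.79% and 6.66% of all genes.

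Of 32 genes of ribosome assembly and ribosomal RNA modification, 1 passed as higher, beside 0.580% of all genes, and none as lower. Among them 1 was higher and 4 were lower at an unadjusted limma p under 0.05, beside 5.79% and 6.66% of all genes. The median was -0.01. MRM2, which methylates the large subunit ribosomal RNA, measured 10.50, 10.05 and 10.24 in SA birds and 9.07, 9.64, 9.30 and 9.28 in NI birds. All SA birds lay above all NI birds, with means of 10.26 ± 0.22 (SD) in SA birds and 9.32 ± 0.24 in NI birds, and the difference was 0.94 (SE 0.16, limma adjusted p = 0.0475). With a bird left out, the call held in 4 of 7 fits and the limma adjusted p ranged between 0.0795 and 0.147. MALSU1, an assembly factor of the large subunit, differed by -0.64 (SE 0.15, limma adjusted p = 0.123).

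Of 64 nuclear-encoded respiratory chain subunits, which are not made by the mitochondrial ribosome, 2 passed as lower, beside 0.967% of all genes. None passed as higher (19 positive and 45 negative differences, median -0.09). The unadjusted limma p was under 0.05 in 3 higher and 10 lower subunits, beside 5.79% and 6.66% of all genes. Every SA bird was above every NI bird in 2 subunits and below in 10, beside 5.60% and 5.93% of all genes. The complex I subunits NDUFV2 (-0.52, limma adjusted p = 0.0856) and NDUFA7 (-0.69, limma adjusted p = 0.0957) passed, in 0 and 1 of the 7 fits with a bird left out. With sex as a covariate neither passed (limma adjusted p = 0.135 and 0.133). Each of these genes had 2 other probe sets, and none of those passed in the main fit. Of 66 cytosolic ribosomal proteins 1 passed as lower, RPL3 (-0.75, limma adjusted p = 0.0422, passing in 2 of those 7 fits), and the median was 0.02. RPLP2 differed by 0.74 (limma adjusted p = 0.154). Among the 66, 2 were higher and 2 lower at an unadjusted limma p under 0.05, beside 5.79% and 6.66% of all genes.

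**Figure D5:**
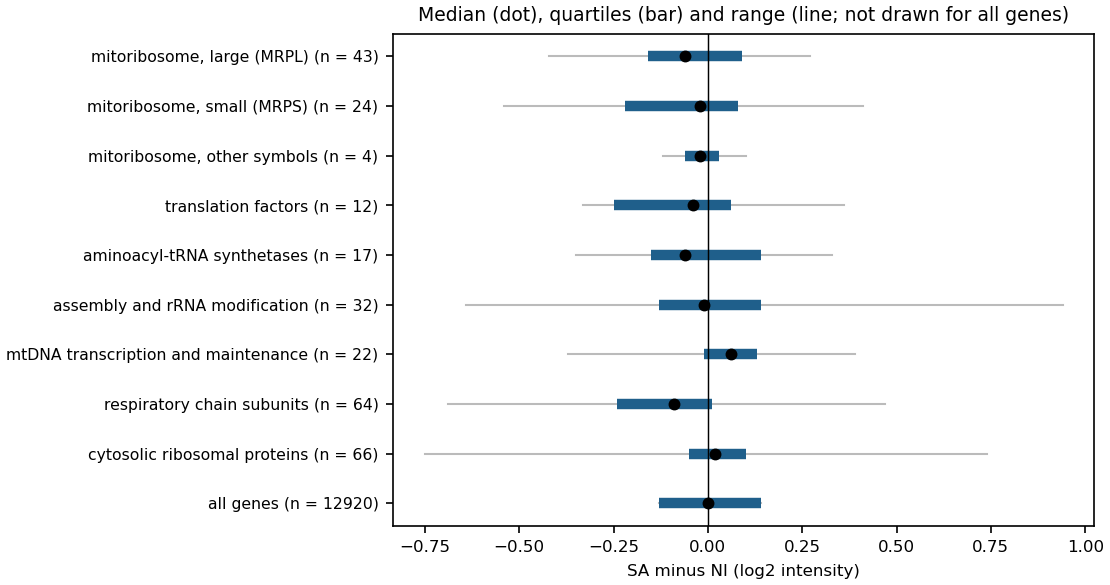
SA minus NI difference (log2 intensity) of the members and of the lists of related genes, with dots for medians, bars for quartiles and lines for the range (not drawn for all genes). The medians lie between -0.09 (respiratory chain subunits) and 0.06 (mitochondrial DNA transcription and maintenance), and the assembly list reaches to 0.94 (MRM2).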

How the data were processed

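Pectoralis RNA of 7 birds was measured on chicken arrays, 1 array a bird. The authors dropped probes that were not above background on at least 1 array. In each probe set they kept the perfect-match probe of highest rank sum over the arrays. They normalised the arrays by quantiles and deposited log2 values for 36897 probe sets (6.44 to 15.3). Arrays have no read depth, and precision is limited by having 7 of them. Of the probe sets, 26108 had 1 gene symbol in the platform annotation, 171 several and 10618 none. The species differs from that of the array, so a probe may bind poorly or to a related transcript.

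Differences were fitted with limma 3.58.1 in R 4.3.3 (lmFit and eBayes, 5 residual and 4.34 prior degrees of freedom), with Benjamini-Hochberg adjustment over all probe sets and a threshold of 0.10, as in the study. Birds are separate animals. The limma fit of SA against NI and its threshold were tried on simulated data. The choice of probe sets, the sex fits and the counts were not tested in this way. Named genes are those past the threshold, the 8 members of largest positive and of largest negative difference, members whose probe sets disagree in call, members on Z, and in each other list those past the threshold and the 2 of largest difference. The members and lists were chosen with earlier results of these data known. Chromosomes came from RefSeq (10549 of 12920 genes matched). Alternatives were other normalisations, filters on dim probe sets, priors, array weights, other probe sets, sex as a covariate, a replicate block, and leaving out each bird.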

Additional observations from a re-analysis of the deposited data

How the results depend on the processing

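No member was called between SA and NI birds under any other normalisation, filter, prior, array weights or covariate, nor without any bird. The deposited values were already normalised by quantiles, so repeating that step or centring medians could change almost nothing and is no check. At an unadjusted limma p under 0.05 the count was 1 to 9. The count of called members was 1 with the second-brightest probe set of the 19 genes that have one, and 1 over all 94 probe sets, both times MRPL32. The second-brightest sets of those genes had medians of 0.03 for all members and 0.01 for the large subunit, and 1 gene without overlap. The small subunit median, -0.02 with all birds, changed sign to 0.07 in those sets, to 0.01 as a mean over probe sets and to 0.04 with genes placed by structure, and leaving out a bird moved it between -0.09 (without SA bird 1) and 0.01 (without SA bird 2). Leaving out a bird moved the large subunit median between -0.06 and -0.01 (-0.01 without SA bird 3). It moved the number of members without overlap between 5 and 19, from 4 with all birds (19 without SA bird 1, and 8 each without SA bird 3, NI bird 2 and NI bird 3). For SA against NI, shares of all genes under an alternative were taken only without SA bird 1 (12.9% below and 14.5% above). The other counts under alternatives, those at an unadjusted limma p under 0.05 included, are therefore not read as high or low for the members. MRPL20 reversed to -0.03 as the mean of its probe sets, and the male minus female difference of MRPS27 to -0.01 in its second probe set. With the replicate number as a block (replicate block), 0 members were called and the member median was -0.04, but the numbers only name birds: deviations of same-numbered birds correlated at 0.292, -0.0264 and 0.173. Under the block no respiratory chain subunit passed. Of the main results, 98 values under alternatives stayed within the spread between birds or near the main count, small medians that changed sign included, and 10 moved. The 98 include the values after the repeated quantile step and the centring, which could hardly differ. In the simulated data, with 7 arrays and the adjusted threshold, differences of 0.5 were mostly missed. Fewer birds leave fewer chances to overlap; other causes were not tested.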

Other observations

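No NI value of any of the 67 members stood apart from the other NI birds by Dixon's criterion, and the SA group, with 3 birds, was not tested. Array weights estimated by limma gave SA bird 1 the lowest weight, 0.474, and SA bird 3 the highest, 1.86. With these weights no member was called. At an unadjusted limma p under 0.05 there were 9 members. The share of all genes was not taken in that fit, so this count is not read as a trait of the members.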
